A study of Mus musculus with 54 samples.

Results

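The regions described here are the accessible regions of the 4 mouse Hox gene clusters. They are the peaks of 1 merged ATAC-seq list whose centre lay in a cluster or within 100 kb of it, where a cluster runs from the first to the last base of the 38 Hox genes used here (Hoxa on chromosome 6, Hoxb on 11, Hoxc on 15 and Hoxd on 2). Of 113737 peaks in the list, 163 met this rule, a share of 0.143%, with 46 around Hoxa, 45 around Hoxb, 40 around Hoxc and 32 around Hoxd. The rule used positions only, so peak widths, base composition and distances to genes did not enter it.

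In ATAC-seq, open DNA is found through the cuts and adapters that the enzyme Tn5 leaves in it. The libraries came from ZHBTc4 mouse embryonic stem (ES) cells, in which doxycycline (dox) shuts off the endogenous Pou5f1 gene, and all samples were kept in dox for 26, 31 or 34 hr. The cells were a sorted population that expressed mCherry-OCT4-AID from the constitutive PGK promoter, Tir1 and the cell cycle reporter YPet-MD, so that indole-3-acetic acid (IAA) led to degradation of the only OCT4 protein left. The 54 samples form 24 groups: a cell cycle set of 22 (no IAA or 500 nM IAA for 2 hr, sorted into Early G1, Late G1, S and Late S/G2), a washout set of 16 (no IAA or IAA for 2.5 hr, then 4.5 hr without it, the same phases) and a time course of 16 unsorted samples (untreated or IAA for 0.5, 1, 2, 3, 4, 6 or 10 hr), with 2 or 3 replicates per group.

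The list pools these samples and gives positions alone. No value below belongs to a treatment, phase or time point, there are no replicates of the list, the depth behind a peak is unknown, and no test was made. Each value of the Hox clusters is instead set beside the same value over all protein-coding genes, all peaks, all CpG islands or all 100 kb tiles of the genome. Of all protein-coding genes, 70.8% had a peak at their transcription start site (TSS). All 5 ES cell markers examined (Pou5f1, Sox2, Nanog, Esrrb and Zfp42) had one, as did 2 of 6 markers of other tissues (Cd3e and Ptprc). Those 2 peaks spanned 365 and 319 bp, within the range of the ES cell markers (254 bp at Nanog to 2335 bp at Pou5f1). Alb, Myh6, Ins2 and Hbb-bs had none.

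Hox genes encode homeodomain transcription factors that give cells of the embryo their position along the head-to-tail axis. They lie in clusters in an order that matches the order in which they are switched on, with paralogue groups of low number at the 3' end expressed first and toward the head, and groups of high number expressed later and toward the tail. In ES cells the genes are mostly silent and their CpG-rich promoters are a textbook target of Polycomb proteins. Retinoic acid, CDX and HOX-PBX proteins are known regulators of the clusters, and CTCF sites are known to divide them into domains.

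The promoter sequences below show how differently base composition and accessibility can combine at Hox genes. They are RefSeq windows of GRCm38.p6 from 250 bases before to 50 after a start site, in the direction of transcription, with every CpG in capitals. Windows were shown for genes without a TSS peak and for the gene with the widest TSS peak of each cluster. Hoxa3 (chr6:52213018-52213317, minus strand) has 20 CpGs and none of its window lay in a peak, whereas all of the windows of Hoxa11 (chr6:52245761-52246060, minus strand, 15 CpGs) and Hoxd10 (chr2:74691641-74691940, plus strand, 22 CpGs) did. The window of Hoxa13 (chr6:52260831-52261130, minus strand) was added after its values were seen because it has 45 CpGs, the most among the Hox genes in the table, and 54.7% of it lay in a peak. Of the genes without a TSS peak or with the widest one of a cluster, Hoxb2, Hoxb3, Hoxb9 and Hoxc13 have no entry in the table.
Hoxa3: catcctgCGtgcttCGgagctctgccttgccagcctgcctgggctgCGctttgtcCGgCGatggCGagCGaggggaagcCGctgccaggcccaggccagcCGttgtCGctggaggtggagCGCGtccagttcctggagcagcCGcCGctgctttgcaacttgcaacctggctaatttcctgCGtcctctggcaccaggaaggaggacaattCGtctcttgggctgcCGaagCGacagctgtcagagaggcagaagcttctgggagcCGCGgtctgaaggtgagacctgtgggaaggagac
Hoxa11: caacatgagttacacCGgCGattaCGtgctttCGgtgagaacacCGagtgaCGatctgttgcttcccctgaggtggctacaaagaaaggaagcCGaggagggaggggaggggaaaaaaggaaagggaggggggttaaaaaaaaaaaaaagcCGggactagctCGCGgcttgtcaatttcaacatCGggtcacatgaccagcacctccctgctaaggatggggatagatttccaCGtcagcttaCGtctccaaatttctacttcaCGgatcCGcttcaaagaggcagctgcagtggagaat
Hoxd10: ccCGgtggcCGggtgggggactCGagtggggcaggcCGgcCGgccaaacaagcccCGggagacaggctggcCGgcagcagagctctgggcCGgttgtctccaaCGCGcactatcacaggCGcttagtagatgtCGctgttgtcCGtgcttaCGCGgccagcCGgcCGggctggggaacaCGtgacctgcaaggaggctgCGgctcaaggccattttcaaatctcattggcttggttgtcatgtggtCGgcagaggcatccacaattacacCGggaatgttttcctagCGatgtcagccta
Hoxa13: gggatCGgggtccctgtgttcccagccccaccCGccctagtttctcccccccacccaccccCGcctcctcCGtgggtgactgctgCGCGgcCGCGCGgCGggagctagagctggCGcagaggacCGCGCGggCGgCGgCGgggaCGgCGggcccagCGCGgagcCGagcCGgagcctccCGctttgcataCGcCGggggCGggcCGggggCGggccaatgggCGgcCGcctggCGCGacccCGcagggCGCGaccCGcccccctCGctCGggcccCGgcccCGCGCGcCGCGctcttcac

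The table held 24 windows of 22 of the 38 Hox genes. Most were of Hoxa and Hoxd, with Hoxb1, Hoxb4 and Hoxb8 alone from Hoxb and Hoxc4 alone from Hoxc. They had a median of 14.5 CpGs (from 4 to 45), beside a median of 7 over all 32851 windows of the table. A peak overlapped 16 of the 24. The share over all windows is not at hand, so nothing can be read from this count about Hox genes as such. The low end of the range held Hoxa9, Hoxd4 and the upstream start of Hoxd11, each with 4 CpGs and no base in a peak. CpG number alone did not separate the windows, since Hoxa3 with 20 CpGs lay outside peaks and Hoxd8 with 6 had 88.3% of its bases inside.

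Peaks were dense in the clusters. The 4 cluster bodies, 484.988 kb in all, held 100 peaks, or 20.6 per 100 kb, and 16.1% of their bases lay inside peaks. The 8 flanks of 100 kb held 63 peaks, or 7.88 per 100 kb, with 5.48% of bases inside. Over 25508 tiles of 100 kb the median was 3 peaks (10th to 90th percentile 0 to 10), and 2.53% of the genome lay inside peaks. In the 785 tiles with at least 5 protein-coding gene starts the median was 9.

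The bodies differed among themselves. Hoxa (chr6:52162417-52260880) had the highest density, 26.4 peaks per 100 kb with 19.4% of bases covered. Hoxd (chr2:74668310-74765142) and Hoxc (chr15:102921103-103036852) had 21.7 and 20.7 per 100 kb, with 21.2% and 18.3% covered. Hoxb (chr11:96194316-96368256) is the longest body, at 173.941 kb, and was the sparsest, with 16.7 per 100 kb and 9.90% covered. Of all tiles, 1.26% reached this lowest of the 4 values, as did 6.62% of the tiles with at least 5 protein-coding gene starts. The highest tile had 40 peaks.

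**Figure D1:**
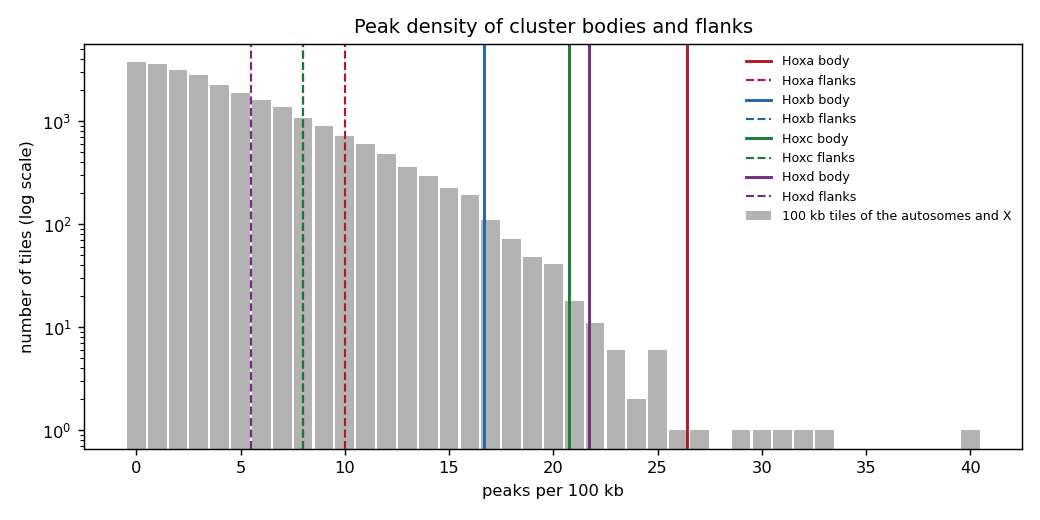
Histogram of the number of peaks per 100 kb in 25508 tiles of the autosomes and X (gray bars, number of tiles on a log scale), with lines at the 4 cluster bodies (solid) and at the 2 flanks of each cluster together (dashed). The bodies stand at 16.7 to 26.4 and the flanks at 5.5 to 10 peaks per 100 kb, and the dashed lines of Hoxb and Hoxc coincide at 8.

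Base composition and repeats also differed between the bodies and the tiles. The CpG observed over expected ratio, which is 1 where CpG occurs as often as C and G content predicts, was 0.480 in the Hoxa, 0.349 in the Hoxb, 0.357 in the Hoxc and 0.460 in the Hoxd body, beside a tile median of 0.178. Repeat-masked sequence made up 13.4% of Hoxa, 24.6% of Hoxb, 15.9% of Hoxc and 14.4% of Hoxd, beside a tile median of 32.2%. Hoxb, with the lowest density, thus had the lowest CpG ratio and the most masked sequence of the 4 bodies. The 8 flanks did not follow this order. The right flank of Hoxc had 12 peaks per 100 kb at a CpG ratio of 0.175, the lowest of the flanks, whereas the left flank of Hoxd had 7 at the highest, 0.286. The right flank of Hoxa had 11 with 34.1% of its sequence masked, and the left flank of Hoxc 4 with 24.9%. The 25 tiles at least as CpG-rich as the Hoxb body had a median of 13 peaks per 100 kb, and 5 of them (20%) reached the density of Hoxb. Of these 25 tiles 4 overlapped a cluster body, among them 3 of the 5. The part of composition and repeats in the densities was not tested.

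Peaks followed each other closely in the bodies. The median gap between neighboring peaks was 3135.5 bp, beside 9120 bp over the autosomes and X. The longest gap was in Hoxb, 30.9 kb (chr11:96204268-96235145), and overlapped no Hox gene: it fell in the stretch that separates Hoxb13, a posterior gene, from Hoxb9. In the other clusters the longest gaps were 12.5 kb in Hoxa, across parts of Hoxa3 and Hoxa4, 11.0 kb in Hoxc, across parts of Hoxc4 and Hoxc5, and 10.7 kb in Hoxd, across parts of Hoxd3 and Hoxd4. These 3 gaps thus fell among paralogue groups 3 to 5.

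**Figure D2:**
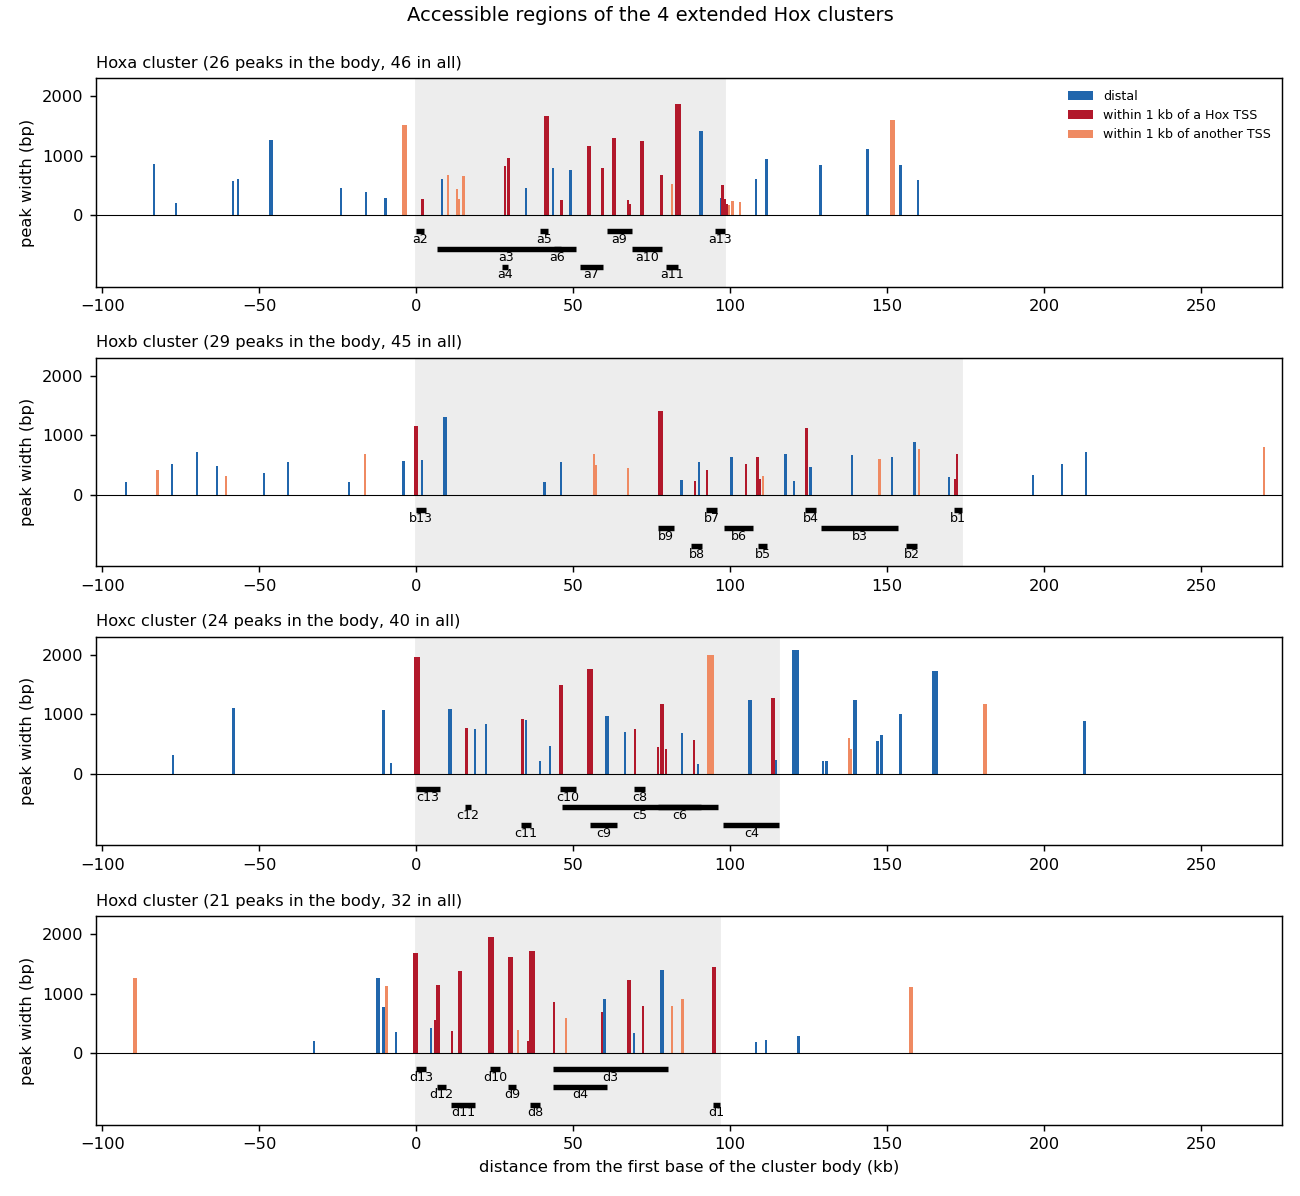
Map of the 4 clusters, each from 100 kb before to 100 kb after its body (gray), in kb from the first base of the body. Each bar is a peak at its centre with its width in bp as height, red within 1 kb of the TSS of a Hox gene, orange within 1 kb of another TSS and blue if distal, and black lines are the genes named by letter and number. The long empty stretch of the Hoxb body, 30.9 kb, lies between b13 and b9, and the bodies hold 100 of the 163 peaks.

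By position, 51 of the 163 peaks were centred within 1 kb of a TSS of a Hox gene, 31 within 1 kb of the TSS of another gene and 81 were distal. Hox TSS peaks were the largest class in the bodies (48, beside 16 other TSS and 36 distal peaks), whereas 45 of the 63 peaks of the flanks were distal, beside 79.0% of all peaks in the list. All 51 Hox TSS peaks, 48 in the bodies and 3 just outside, overlapped a CpG island, beside 72.3% of all TSS peaks.

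Most Hox genes had a peak near a start site. A TSS peak, with its centre within 1 kb of a start, was found for 35 of the 38 genes (92.1%), beside 70.8% of 21938 protein-coding genes. All 9 Hoxc and all 9 Hoxd genes had one, as did 9 of 10 Hoxa and 8 of 10 Hoxb genes. The 3 genes without were Hoxa3, which acts in the formation of the thymus and parathyroid, and Hoxb2 and Hoxb3, which act in the hindbrain. They are all of paralogue group 2 or 3, and 8 of 11 genes of groups 1 to 4 had a TSS peak, compared with 11 of 11 in groups 5 to 8 and 16 of 16 in groups 9 to 13.

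Promoter base composition bears on this comparison. A promoter was called CpG-rich where 1 kb around a start site had a GC content of at least 55% and a CpG ratio of at least 0.75. All 15 Hox genes with such a promoter had a TSS peak, beside 99.5% of the 6844 protein-coding genes of this kind. Of the 23 other Hox genes 20 had one, beside 57.8% of the protein-coding genes without a CpG-rich promoter. Hoxa3, Hoxb2 and Hoxb3 were among these 23, with highest CpG ratios at any start site of 0.63, 0.40 and 0.57. The Hox and other genes without a CpG-rich promoter were not matched in composition. The median CpG ratio of their TSS peaks was 0.663 and 0.586. With the ratio limit lowered from 0.75 to 0.6, 99.3% of protein-coding genes with a CpG-rich promoter had a TSS peak. The part of composition in the difference was not tested.

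The genes without a TSS peak did not lack peaks nearby. The peak nearest to any Hoxb3 start was 592 bp wide and centred 1022.5 bp downstream of that start, just outside the limit of 1 kb. For Hoxa3 the nearest centre lay at 1446.5 bp (a peak of 768 bp, chr6:52211285-52212052) and for Hoxb2 at 1529.5 bp (884 bp, chr11:96352719-96353602), in both cases inside the gene. The edges of these peaks were 727, 1063 and 1088 bp from the starts of Hoxb3, Hoxa3 and Hoxb2. On the other side of the limit, the largest distances were 693.5 bp at Hoxa5, 663.5 bp at Hoxb9 and 654 bp at Hoxd9. With a limit of 2500 bp all 38 genes had a TSS peak, and with 500 bp 31 had one.

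Some peaks served as the TSS peak of more than 1 gene. Hoxc5 was called through an upstream start that shares a peak (chr15:102966485-102967982, 1498 bp) with Hoxc10, a gene of the lumbar region. Hoxd3 and Hoxd4 share a peak of 869 bp (chr2:74711848-74712716) at upstream starts of both. Counting a shared peak only for the gene with the closest start left 34 of 38, with Hoxc10 the gene lost.

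The peak closest to each start was described for the 35 genes, by cluster from 3' to 5'. In Hoxa these peaks ranged from 191 to 1873 bp. Hoxa2, which patterns the second pharyngeal arch, had a narrow peak of 277 bp that did not reach the start, and Hoxa6 had a narrow one of 254 bp over it. Hoxa4 (967 bp) and Hoxa7 (1162 bp) had broader peaks over their starts. At Hoxa5, a gene needed in lung development, a peak of 1674 bp was centred 693.5 bp downstream. Hoxa9, a regulator of blood cell growth, had 3 TSS peaks, of which the closest was the narrowest of all 35 (191 bp) and the widest spanned 1295 bp.

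The posterior Hoxa genes were uneven. Hoxa10, which acts in the uterus, had a closest peak of 670 bp and a widest one of 1257 bp at its starts. Hoxa11, which with Hoxd11 shapes the forearm, had the widest peak of the cluster (1873 bp, chr6:52244801-52246673), centred 58 bp from a start. Hoxa13, which acts in digits, had 3 TSS peaks, and the widest of them spanned only 502 bp (chr6:52259787-52260288). That peak lay outside the promoter window with the most CpGs of the sequences shown. The window overlapped a peak of 272 bp (chr6:52260723-52260994). 

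Hoxb had the narrowest TSS peaks, with a median of 574 bp. Hoxb1, which specifies a hindbrain segment, had 2 TSS peaks of which the wider spanned 679 bp, and no start of it lay inside a peak. Hoxb4, a regulator of blood stem cells, stood out among its neighbors with 1112 bp. Hoxb5, Hoxb6, Hoxb7 and Hoxb8 lay side by side with 630, 518, 407 and 229 bp, and no start of Hoxb7 or Hoxb8 fell inside a peak. The widest peaks were at the posterior end, 1412 bp at Hoxb9 (chr11:96271481-96272892) and 1162 bp at Hoxb13, a gene known from the prostate and tail.

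In Hoxc and Hoxd a start of every gene lay inside a peak. The median widths were 1269 bp in Hoxc and 1443 bp in Hoxd. Hoxc13, which acts in hair and nails, had the widest TSS peak of all 38 genes (1967 bp, chr15:102920385-102922351), followed in its cluster by Hoxc9 (1770 bp), which sets the identity of thoracic motor neurons. Hoxc10 and Hoxc5 share 1498 bp, Hoxc4 had 1269 bp, Hoxc11 922 bp, Hoxc12 775 bp and Hoxc8 749 bp. Hoxc6 had 4 TSS peaks, the most of any Hox gene, with the closest at 571 bp and the widest at 1176 bp.

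Peak widths in Hoxd lay on both sides of the median of all protein-coding genes, 1172 bp. Hoxd10 (1949 bp, chr2:74691112-74693060), Hoxd8 (1726 bp), Hoxd13 (1679 bp) and Hoxd9 (1621 bp) led, and the digit gene Hoxd13 had its whole 1 kb promoter inside the peak. Hoxd1, at the other end, had 1443 bp, Hoxd11 1384 bp and Hoxd12 1155 bp. The closest peaks of Hoxd3 and Hoxd4 were the shortest of the cluster, 869 and 688 bp.

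**Figure D3:**
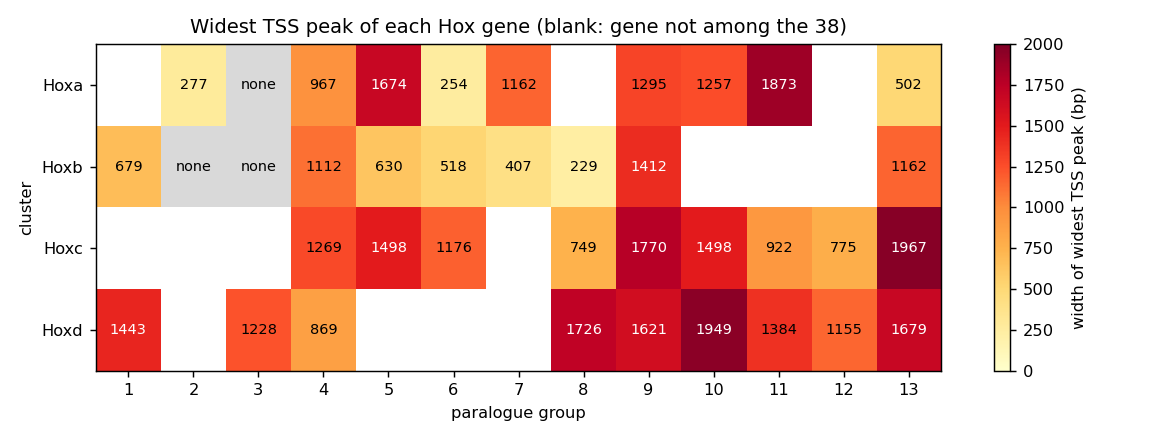
Width in bp of the widest TSS peak of each Hox gene, by cluster (rows) and paralogue group (columns). Darker red is wider, gray squares with "none" are Hoxa3, Hoxb2 and Hoxb3, which had no TSS peak, and white squares hold none of the 38 genes. Hoxc13 (1967 bp) and Hoxd10 (1949 bp) are the widest, and Hoxb8 (229 bp), Hoxa6 (254 bp) and Hoxa2 (277 bp) the narrowest.

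Over all 35 genes the closest TSS peak had a median width of 1112 bp (quartiles 600.5 and 1498 bp), beside 1172 bp (892 and 1440 bp) over all protein-coding genes and 1340 bp over those with a CpG-rich promoter. The middle of the distribution was therefore near that of other genes, and its lower quartile was lower. The median was 918 bp in paralogue groups 1 to 4, 630 bp in groups 5 to 8 and 1398 bp in groups 9 to 13. Spearman's rho between paralogue number and width was 0.30 over 35 genes, which share clusters and in 2 cases peaks, so that it is a description only.

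Hox TSS peaks were CpG-dense and lay toward the gene. Their median CpG ratio was 0.766 (from 0.438 at Hoxb13 to 1.02 at Hoxb6), beside 0.686 over all protein-coding genes and 0.794 over those with a CpG-rich promoter, and by cluster it was 0.828 in Hoxa, 0.725 in Hoxb, 0.624 in Hoxc and 0.757 in Hoxd. The peak centre lay downstream of the start in 25 of 35 genes, beside 57.9% of protein-coding genes with a TSS peak, and the median offset was 189.5 bp downstream, beside 18.5 bp. A start lay inside a peak in 31 of 38 Hox genes, beside 67.1% of protein-coding genes. At least 2 TSS peaks were found in 13 of 38, beside 17.8%.

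Accessible sequence reached far into the exons of Hox genes. A median of 34.4% of exon bases lay inside peaks (quartiles 24.0% and 44.2%), beside 7.57% over all protein-coding genes and 11.5% over those with a CpG-rich promoter. Since Hox genes are compact, the comparison was repeated with the 8528 genes that had a TSS peak and whose exon bases and span fell in the range of the Hox genes (874 to 6014 and 1853 to 49987 bp), and their median was 15.1%. At least 25% of exon bases lay inside peaks in 28 of the 38 Hox genes, beside 15.1% of all protein-coding genes and 26.2% of these 8528 genes of like size.

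The share varied widely between Hox genes. Hoxc12 had the highest, 67.9%, and Hoxd4 (57.0%), Hoxc4 (52.7%) and Hoxd9 (52.4%) followed. The lowest were Hoxa3 with 12.9% and Hoxa2 with 15.6%. Hoxb had the lowest median of the clusters (25.5%), compared with 33.4% in Hoxa, 42.6% in Hoxc and 44.1% in Hoxd. Of the genes without a TSS peak, Hoxb2 had 25.3% and Hoxb3 17.2% of exon bases inside peaks. Long transcript models overlap neighboring genes in Hoxa3, Hoxc5 and Hoxd3, so that some exon bases count for 2 genes.

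**Figure D4:**
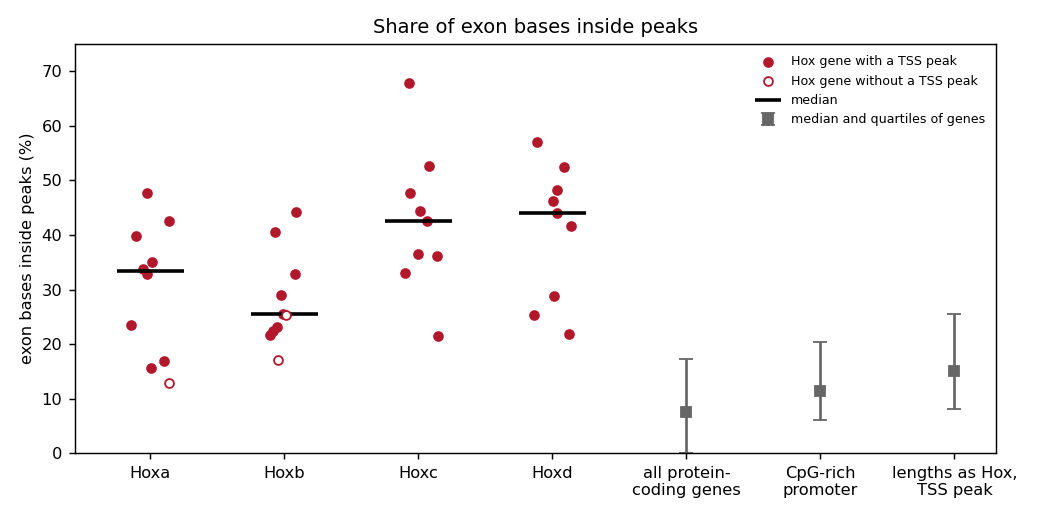
Percent of exon bases inside peaks for each Hox gene by cluster (points, open where the gene had no TSS peak, black line at the median) and for 3 sets of protein-coding genes (gray squares at the median, bars from the lower to the upper quartile). All 38 Hox genes lie above 7.57%, the median of all protein-coding genes, and the cluster medians are 33.4% for Hoxa, 25.5% for Hoxb, 42.6% for Hoxc and 44.1% for Hoxd.

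CpG islands were taken as stretches made of 200 bp windows with a GC content of at least 50% and a CpG ratio above 0.6. The bodies held 235 islands, of which 107 overlapped a peak (45.5%, 95% Wilson confidence interval 39.3 to 51.9%, counting error only), beside 21.2% of 177582 islands of the autosomes and X. Among islands of at least 500 bp the share was 80.2% (73 of 91, interval 70.9 to 87.1%), beside 57.3%. In Hoxb 35.4% of islands overlapped a peak, in Hoxc 55.2%, in Hoxa 49.0% and in Hoxd 46.9%.

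Of the 30 longest islands of the bodies, 19 held a start of a Hox gene and 11 did not. The longest, an island of 2137 bp at Hoxc11 (chr15:102954069-102956205), was covered by peaks over 68.2% of its length, and one of 2128 bp at Hoxd11 over 65.0%. Islands at the starts of Hoxd8 (1583 bp) and Hoxd1 (1130 bp) were covered over 99.6% and 100%. Those at Hoxb7 (1745 bp) and Hoxb8 (1221 bp) were covered over 23.3% and 18.8%. The longest islands without a Hox start, 1686 bp in Hoxa (chr6:52252315-52254000) and 1631 bp in Hoxc (chr15:103014060-103015690), were covered over 83.7% and 100%. Of the 18 islands of at least 500 bp that no peak touched, the longest, 1102 bp (chr2:74732540-74733641), held a start of Hoxd3.

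Distal peaks of the bodies were CpG-rich. Of 36 such peaks, 31 overlapped a CpG island, beside 17.6% of all 89797 distal peaks. Their median CpG ratio was 0.563 and their median width 627 bp, beside 0.210 and 380 bp over all distal peaks, and the CpG ratio of all TSS peaks had a median of 0.584. In the flanks 22 of 45 distal peaks overlapped an island, with a median CpG ratio of 0.339 and a width of 572 bp. By annotation 14 of the 36 were intergenic, 12 intronic and 10 exonic.

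The wide distal peaks of the bodies lay between Hox genes or inside them. The widest, 1411 bp (chr6:52252505-52253915), was intergenic between Hoxa11 and Hoxa13. In Hoxd a peak of 1395 bp (chr2:74746045-74747439) lay on an exon inside the Hoxd3 gene, near its end. Hoxb had one of 1312 bp (chr11:96202956-96204267) that bounds the long gap next to Hoxb13, and Hoxc one of 1251 bp (chr15:103026936-103028186) in an intron of Hoxc4. The widest peak near any cluster was distal too, 2080 bp in the right flank of Hoxc.

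The clusters also carry non-coding genes. Of 18 genes annotated as antisense, lincRNA, processed transcript, bidirectional promoter lncRNA or TEC (to be experimentally tested) that started in the bodies, 11 had a TSS peak, beside 31.0% of all genes of these types. Among the antisense and long non-coding RNAs these included Hoxaas3, Hoxa11os, Hoxb5os, Hoxb3os, Hoxd3os1 and Haglr, the last with a peak centre 337 bp from its start. The Haglr peak (chr2:74762512-74763954) is also the TSS peak of Hoxd1. Hotair, a long RNA of the Hoxc cluster known from work on Polycomb targeting, had none, and the nearest centre lay 4394.5 bp away. Short misc_RNA entries had a TSS peak in 3 of 12 cases, beside 16.2% of all such entries, and all 3 shared the TSS peak of Hoxa11 (1873 bp). The counts of non-coding genes thus include peaks already counted for Hox genes. Around the clusters, the neighboring protein-coding genes Evx1, Evx2, Mtx2, Ttll6 and Skap1 all had TSS peaks.

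Of 7 miRNA genes in the bodies 3 had a peak centre within 1 kb, beside 19.4% of all miRNA genes. The RefSeq mature sequences are shown with the seed (bases 2 to 8) in capitals, because members of different clusters share it. The seed AGGUAGU is common to miR-196a-5p, encoded in both Hoxb (chr11:96265187-96265208) and Hoxc (chr15:102973365-102973386), and miR-196b-5p of Hoxa (chr6:52230129-52230150). The seed ACCCUGU is common to miR-10a-5p of Hoxb (chr11:96317186-96317208) and miR-10b-5p of Hoxd (chr2:74726074-74726096), and miR-615-3p of Hoxc (chr15:103014969-103014990) has another seed.
mmu-miR-196a-5p: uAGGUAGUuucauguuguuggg
mmu-miR-196b-5p: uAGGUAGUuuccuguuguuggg
mmu-miR-10a-5p: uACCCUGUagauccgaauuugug
mmu-miR-10b-5p: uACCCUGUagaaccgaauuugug
mmu-miR-615-3p: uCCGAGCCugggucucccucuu

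These miRNAs are known to repress Hox mRNAs, and their surroundings differed even within a seed group. The miR-196b-5p sequence lay 60 bp from the edge of a peak of 262 bp, whereas the miR-196a-5p copies lay 3258 bp (Hoxb) and 2163 bp (Hoxc) from the nearest peak. The pair with the ACCCUGU seed was alike: miR-10a-5p was 979 bp and miR-10b-5p 982 bp upstream of the peaks at Hoxb4 and Hoxd4. The miR-615-3p sequence lay inside a peak of 2001 bp (chr15:103013901-103015901), the widest of the cluster bodies, in the Hoxc5 gene.

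Sequence motifs of known regulators were searched on both strands. CTCF was matched as a 12-letter consensus with up to 1 mismatch. It occurred in 10 of 81 distal peaks of the extended clusters (12.3%, interval 6.85 to 21.3%), beside 16.1% of all distal peaks, and in 8 of 51 Hox TSS peaks, beside 18.4% of all TSS peaks. Hox distal peaks were wider than others, and the number of matches per kb was 0.188 beside 0.361. The order of the shares depended on the setting. With up to 2 mismatches they were 55.6% of Hox distal peaks and 44.4% of all distal peaks, and with the clusters extended by 200 kb, at up to 1 mismatch, 17.8% of Hox distal peaks held a match. No match in the clusters was free of mismatches, although 4.53% of all distal peaks held such a match.

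The CTCF matches of Hox TSS peaks fell at Hoxa5, Hoxa7, Hoxa10, Hoxa11, Hoxc6, Hoxc11 and, with 2 matches, in the Hoxd3 and Hoxd4 stretch. The 5 distal matches of the bodies are shown with 10 bases on each side and the 12 letters in capitals, in the direction of the match, together with the match in the TSS peak of Hoxa7. Of these 5, 3 were intergenic, the one in Hoxa lay in an intron and the second of Hoxb on an exon. They are shown because they are the matches of the bodies away from start sites, and because the match of Hoxa7 has the same 12 letters as that near Hoxd12. The coordinates in GRCm38 are those of the 12 letters, in the order of the list: chr6:52206307-52206318 (plus), chr11:96278948-96278959 (plus), chr11:96346195-96346206 (minus), chr15:102943458-102943469 (minus), chr2:74673178-74673189 (minus) and chr6:52221809-52221820 (minus).
Hoxa, nearest start Hoxa5: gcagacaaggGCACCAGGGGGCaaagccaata
Hoxb, nearest start Hoxb8: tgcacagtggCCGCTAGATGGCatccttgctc
Hoxb, nearest start Hoxb3: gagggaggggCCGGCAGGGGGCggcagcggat
Hoxc, nearest start Hoxc12: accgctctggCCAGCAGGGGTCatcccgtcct
Hoxd, nearest start Hoxd12: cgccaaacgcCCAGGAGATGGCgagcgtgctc
Hoxa, TSS peak of Hoxa7: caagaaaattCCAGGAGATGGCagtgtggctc

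The HOX-PBX letters TGATNNAT occurred in 13 of 81 distal peaks of the extended clusters, beside 15.8% of all distal peaks, and in 11 of 51 Hox TSS peaks (21.6%, interval 12.5 to 34.6%), beside 14.9% of all TSS peaks. The distal matches lay in 3 of 36 peaks of the bodies (interval 2.87 to 21.8%) and 10 of 45 of the flanks (interval 12.5 to 36.3%), and these intervals overlapped and both held the share of all distal peaks. The CDX letters TTTATNG occurred in 19 of 81 distal peaks, beside 18.4%, and in 15 of 51 Hox TSS peaks (29.4%, interval 18.7 to 43.0%), beside 19.9%. All of the background shares of these 2 motifs lay inside the intervals of the Hox peaks.

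Motifs of the pluripotency factors were searched in the same way, and these strict letters were rare over the whole list. The octamer ATTTGCAT occurred in 1 of 81 distal peaks, beside 3.05% of all distal peaks, and in 1 of 51 Hox TSS peaks, at Hoxa10, beside 3.12% of all TSS peaks. The composite OCT4::SOX2 consensus, 15 letters with up to 2 mismatches, was in none of the 81 or the 51, beside 0.263% and 0.226% of all distal and TSS peaks. Taken as 3 counts of the total, a count of 0 of 81 allows a share of up to 3.70% and 0 of 51 one of up to 5.88%, and the upper ends of the 95% Wilson intervals were 4.53% and 7.0%. All of the background shares of these motifs lay inside the intervals of the Hox peaks, so no difference was detectable with these numbers of peaks.

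Retinoic acid response elements, written as 2 copies of AGGTCA spaced by 5 bases with up to 1 mismatch, occurred in 2 of 81 distal peaks, beside 0.837% of all distal peaks, and in none of 51 Hox TSS peaks, beside 0.769% of all TSS peaks. Both lay in flanks. The match in the left flank of Hoxa (chr6:52138780-52138796, plus strand, in a peak of 463 bp) was intergenic and 26043 bp from the nearest Hoxa2 start, on the 3' side of the cluster. The match in the right flank of Hoxc (chr15:103134051-103134067, minus strand) was intronic and 99664 bp from Hoxc4. The 17 letters of each are in capitals.
Hoxa flank: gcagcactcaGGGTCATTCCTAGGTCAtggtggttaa
Hoxc flank: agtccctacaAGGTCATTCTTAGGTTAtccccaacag

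In the promoter windows of RefSeq the same letters were counted. The retinoic acid letters occurred in 1 of 24 Hox windows, that of Hoxd3, beside 0.262% of all windows of the table. HOX-PBX letters were in 4 (Hoxa2, Hoxb1, Hoxb8 and the downstream start of Hoxd11), beside 8.85%, and CDX letters in 2 (Hoxb8 and Hoxd4, with 3 matches each), beside 10.9%. The octamer was in none, beside 1.74%.

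Related genes were read out in the same way, beside the 70.8% of all protein-coding genes and 99.5% of those with a CpG-rich promoter that had a TSS peak. Among 15 homeobox genes linked to Hox genes by ancestry or function 14 had a TSS peak, all but Meox1, and their median share of exon bases inside peaks was 36.5%, near the 34.4% of Hox genes. The 9 cofactors of the Pbx, Meis and Pknox families, which help Hox proteins to bind DNA, all had a TSS peak, and their median exon share was 8.89%. Of 14 genes of retinoic acid signaling, from receptors (Rara, Rarb, Rarg) to enzymes that make or degrade it, 12 had a TSS peak, and Cyp26c1 and Aldh1a1 did not. A CpG-rich promoter was present in 7 of the 15 homeobox genes, 3 of the 9 cofactors and 6 of these 14 genes.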

How the data were processed

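The authors aligned ATAC-seq reads to GRCm38 (mm10) with STAR 2.6.1c, removed duplicates with Picard, called peaks with MACS2 2.1.1.20160309 and merged them with BEDTools. As deposited, each of the 113737 regions is described by 3 columns of plain positions in bp and by no other value, so library depth is unknown. Whether peaks were called per library or on pooled libraries is not given in the sources used here. The study states that regions above 5 kb were removed, yet the list held 11, none of them in the Hox clusters. How the number and widths of the merged regions depend on the depth of the 54 libraries was not tested.

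Positions (1-based) were compared with the GRCm38.p6 sequence and GENCODE M21 in Python 3.11.15 (numpy 2.4.6, pandas 2.3.3, scipy 1.17.1, matplotlib 3.10.9). A TSS peak has its centre within 1 kb of any annotated start of the gene, and a distal peak lies farther from all starts. Tiles had at least 80 kb of sequence. Functions were tested on simulated data. Promoter and miRNA sequences are from RefSeq (GRCm38.p6).

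All 38 Hox genes could be named, besides neighbors, non-coding genes starting in a body and fixed lists. The CpG-dense window of Hoxa13, the long islands and the distal peaks named by width were picked after their values were seen. The genes, lists and alternatives were chosen with earlier results of these data known. GEO's labels put all 54 samples in groups, but no comparison between groups was made here.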

Additional observations from a re-analysis of the deposited data

How the results depend on the processing

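The list has no values per sample, so leaving out a replicate was not possible. No paired analysis was possible because no value belongs to a numbered replicate. Of 71 recomputed values of 11 results, 58 stayed within 1.5 times the reported value (counts, densities, widths and ratios) or within its 95% Wilson interval (shares), and 13 did not. Some of the 58 could not have moved, so this tally does not measure robustness. Leaving out peaks above 5 kb could not alter a Hox value, because the Hox clusters held none. A count of 35 among 38 genes could not exceed 1.5 times itself. The Hox genes with a TSS peak numbered 31 (limit of 500 bp, or start base inside the peak) to 38 (2500 bp), 32 without peaks under 300 bp, and 34 where a shared peak counted once, an alternative chosen after seeing the data. Cluster bodies held 17.1 to 21.0 peaks per 100 kb and flanks 6 to 10.8.

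The share of protein-coding genes with a TSS peak was 67.1% at 500 bp, 74.8% at 2500 bp, 67.1% with the start base inside the peak, 69.3% with starts of protein-coding transcripts only and 69.0% without peaks under 300 bp. For genes with a CpG-rich promoter it was 96.9%, 99.7%, 98.6% and 98.7% under the first 4 of these. The share of Hox distal peaks with the CTCF consensus was 0% with no mismatch and 55.6% with up to 2 (all distal peaks 44.4%). CpG islands of the bodies overlapped a peak in 80.2% of those of at least 500 bp, and in 34.9% where peaks had to cover at least 50% of the island. These definitions admit fewer or more starts, matches or islands by construction. Without counts per library, differences in accessibility between treatments, phases or times were not analysed here.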
